A study of Mus musculus with 10 samples.

Results

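Clec4f, Vsig4, Timd4, Cd5l, Marco, C6, Folr2 and Slc40a1 are 8 genes used to recognise Kupffer cells, the resident macrophages of the liver. They were taken as a named list, 8 of the 32285 genes in the tables, and followed in single cells of mouse livers that carried metastases of colorectal cancer. The question was whether single cells express these genes together, and in which population. At least 4 of the 8 genes were found together in 20 of 1175 macrophages, and no endothelial-like cell held more than 1.

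Cells came from 5 livers: an IFNa + aCTLA4 liver (liver 22, n = 1), IFNa livers (18 and 23, n = 2) and Control livers (11 and 25, n = 2). Per the labels, Control mice received a control lentiviral vector (LV), IFNa mice a vector for interferon alpha, and the combination mouse or mice interferon alpha plus an anti-CTLA-4 antibody, which blocks a checkpoint receptor carried by T cells. The labels give no strain, age or vector promoter, or whether each liver is a separate animal, so the p-values reflect variation among these 5 samples and that variation may be technical. The metastases were isolated, digested with enzymes and sorted for viable cells without antibodies, then profiled by droplet RNA sequencing, in which a unique molecular identifier (UMI) counts each captured transcript, with T cell receptor sequencing of the same cells. After filters and removal of likely doublets 26229 of 28039 barcodes were kept, 844 to 8814 per liver, with library totals of 10464216 to 69856071 UMIs and 398 barcode sequences found in more than 1 library.

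Kupffer cells line the liver sinusoids and clear particles, microbes and old red cells from portal blood. They are seeded before birth and renew themselves locally, and monocytes that enter an emptied niche acquire the same genes step by step. Macrophages inside metastases come largely from blood monocytes and are known to carry other genes, so the 8 genes are used to tell resident from recruited cells. The members have different roles. Clec4f is a C-type lectin restricted to Kupffer cells in mice, Vsig4 a complement receptor, Timd4 a receptor for phosphatidylserine on dying cells, Marco a scavenger receptor and Folr2 a folate receptor. Cd5l is a secreted scavenger protein, C6 a secreted component of the complement attack complex, and Slc40a1 is ferroportin, the exporter of iron.

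Populations were gated on other genes, never on a member. A macrophage held UMIs of C1qa, C1qb and C1qc together, at least 8 C1q UMIs in every 10000 UMIs of the cell, and at least 2 of 5 other macrophage markers such as Adgre1, Csf1r and Mertk, with at most 2 markers of another lineage. A classical monocyte held at least 6 of 8 markers such as Ly6c2 and Ccr2 and at most 1 C1q UMI, a non-classical monocyte 5 of 8, and an endothelial-like cell 5 of 12 markers such as Kdr, Egfl7 and Stab2. The macrophages numbered 95 in the IFNa + aCTLA4 liver, 223 and 431 in the IFNa livers and 370 and 56 in the Control livers, with a median of 12379 UMIs per cell. The endothelial-like cells numbered 15, of which 10 lay in Control 11, 3 in IFNa 23, 1 in IFNa 18, 1 in Control 25 and none in IFNa + aCTLA4 22, with a median of 11638 UMIs. Egfl7 and Tie1 were detected in 15 of these 15 cells and the sinusoidal genes Stab2 and Clec4g in 6 and 8. Classical monocytes numbered 3195 and non-classical monocytes 483, and no cell passed both the macrophage and the endothelial gate.

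The upstream sequences of 4 members are shown because these genes appeared together in single cells. They are the 250 bases before the RefSeq start (GRCm38.p6), written 5′ to 3′ in the direction of the gene, with 3 motifs of 6 letters in capitals: GAGGAA (core of PU.1 and SpiC sites), AGGTCA (half-site of nuclear receptors) and TGGGAA (RBPJ), each searched on both strands, with 0 overlapping matches.
Clec4f, chr6:83656117-83656366, minus strand: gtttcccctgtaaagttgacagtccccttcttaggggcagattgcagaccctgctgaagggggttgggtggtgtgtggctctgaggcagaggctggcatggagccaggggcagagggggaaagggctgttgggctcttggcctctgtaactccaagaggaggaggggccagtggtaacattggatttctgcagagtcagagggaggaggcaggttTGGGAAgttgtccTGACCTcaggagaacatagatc
Timd4, chr11:46810549-46810798, plus strand: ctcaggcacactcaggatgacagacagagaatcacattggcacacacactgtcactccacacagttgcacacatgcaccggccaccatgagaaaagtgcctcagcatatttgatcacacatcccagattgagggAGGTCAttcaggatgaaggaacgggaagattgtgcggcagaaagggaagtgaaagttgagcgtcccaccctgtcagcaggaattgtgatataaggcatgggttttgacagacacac
Cd5l, chr3:87357631-87357880, plus strand: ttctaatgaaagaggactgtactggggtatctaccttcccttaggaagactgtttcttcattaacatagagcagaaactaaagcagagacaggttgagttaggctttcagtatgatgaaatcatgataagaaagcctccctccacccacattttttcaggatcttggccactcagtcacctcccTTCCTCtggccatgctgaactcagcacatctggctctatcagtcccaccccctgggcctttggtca
Vsig4, chrX:96293439-96293688, minus strand: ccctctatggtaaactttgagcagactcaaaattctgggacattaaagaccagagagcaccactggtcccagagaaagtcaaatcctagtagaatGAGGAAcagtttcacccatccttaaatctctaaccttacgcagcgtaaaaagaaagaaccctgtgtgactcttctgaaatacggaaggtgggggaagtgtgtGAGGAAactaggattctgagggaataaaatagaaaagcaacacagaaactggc
RefSeq held an upstream sequence for 7 of the 8 members, with 2 for Folr2. Neither Folr2 sequence held any of the 3 motifs. GAGGAA was present for Cd5l, Marco and Vsig4, 3 of these 7 genes, and in 23.3% of all 32851 promoters of the same length. AGGTCA was present for C6, Clec4f and Timd4 (14.0% of all promoters) and TGGGAA for Clec4f and Marco (21.6%). No motif was present for every one of these genes, and a match is a description of letters only.

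Of the 1175 macrophages, 1064 held no UMI of any member, 69 held 1 member, 17 held 2 and 5 held 3. The other 20 held 4 or more: 6 cells held 4, 5 cells held 5, 1 cell held 6, 4 cells held 7 and 4 cells held all 8. These coexpressing macrophages numbered 2 in IFNa + aCTLA4 22, 9 in IFNa 18, 5 in IFNa 23, 4 in Control 11 and 0 in Control 25. They were therefore a small subset of the gated macrophages in 4 of the 5 livers.

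**Figure D1:**
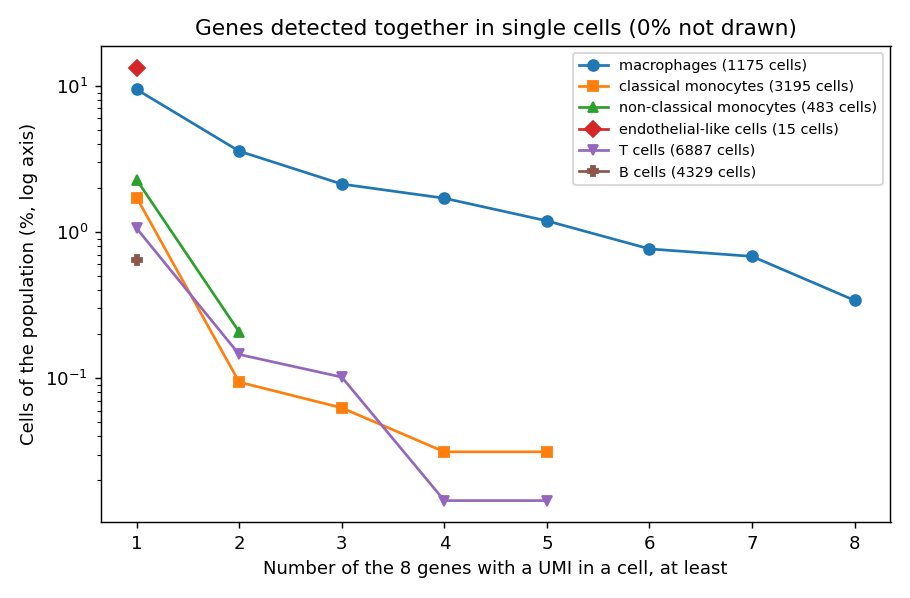
Share of the cells of each gated population (log axis, %) that held at least the number of the 8 genes on the x axis, all livers together; T and B cells stand for background. Of the populations drawn, the macrophage line alone reaches 8 genes, endothelial-like cells and B cells stop at 1, and 20 of 1175 macrophages held 4 or more.

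The endothelial-like cells did not coexpress the members. Of 15 cells, 13 held none, and 2 held a single UMI of Slc40a1 each, in Control 11 and Control 25. A count of 0 in 15 cells allows a share of up to 20%, so a small coexpressing fraction was not detectable with so few cells. A likely doublet of IFNa 18, removed before gating, held 11 of 12 endothelial markers and 5 of 8 macrophage markers together with 4 members, namely 6 UMIs of Cd5l, 2 of Vsig4 and 1 each of Clec4f and Timd4.

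Classical monocytes held 1 cell with 5 members and 1 with 3 among 3195, with summed member counts of 7 and 4 UMIs, and no non-classical monocyte held more than 2. In all populations 28 cells held 4 or more members. The 8 outside the macrophage gate were 4 ungated cells and 1 cell each gated as classical monocyte, T, NK and epithelial cell, with 4 to 17 member UMIs. The T cell carried a T cell receptor beta chain as well as 5 members. T cells (median 5904 UMIs) and B cells (median 4125 UMIs), which should lack these genes, held a UMI of Clec4f in 0.0726% and 0.0693% of cells, against 1.79% of macrophages.

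With each cell thinned to 3000 UMIs, which left out 32 of 1175 macrophages as shallower, 4 or more members were found in 1.10% of macrophages of IFNa + aCTLA4 22 (exact 95% interval 0.0278 to 5.97), in 2.30% (0.752 to 5.29) and 0.952% (0.260 to 2.42) of those of IFNa 18 and 23, and in 0.554% (0.0672 to 1.99) and 0% (0 to 6.6) of those of Control 11 and 25. Without thinning the shares were 2.11% in IFNa + aCTLA4 22, 4.04% and 1.16% in IFNa 18 and 23, and 1.08% and 0% in Control 11 and 25. The thinned mean was 1.63% in IFNa livers against 0.277% in Control livers, a difference of 1.35 percentage points. Both IFNa livers lay above both Control livers. With 2 livers against 2 an exact two-sided permutation test cannot give a p below 0.333, the value found here, so the difference could not be tested at 0.05. The intervals of the livers overlapped, cover counting error only, and 0 of 54 Control 25 macrophages allows a share of up to 5.56%. In classical monocytes the thinned share was 0% in each of the 5 livers.

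The counts inside the coexpressing macrophages ran from single UMIs to over 100 UMIs of 1 gene. In the 9 cells of IFNa 18 the members summed to 5 to 439 UMIs, in the 5 cells of IFNa 23 to 14 to 94, in the 2 cells of IFNa + aCTLA4 22 to 11 and 85, and in the 4 cells of Control 11 to 7 to 73. The cell with the most, in IFNa 18, held 208 UMIs of Cd5l, 114 of Clec4f, 52 of Slc40a1, 29 of Vsig4, 14 each of Timd4 and Folr2 and 8 of C6, and no Marco. A sum of 50 or more UMIs was reached by 10 of the 20 cells: 1 in IFNa + aCTLA4 22, 5 in IFNa 18, 3 in IFNa 23 and 1 in Control 11. All 10 held Cd5l and Slc40a1, 9 held Clec4f and 0 held the monocyte gene Ccr2. The cell in Control 11 among them held 15 UMIs of Clec4f, 27 of Cd5l and 12 of Marco, and 7 of the 8 members in all, with no Folr2.

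**Figure D2:**
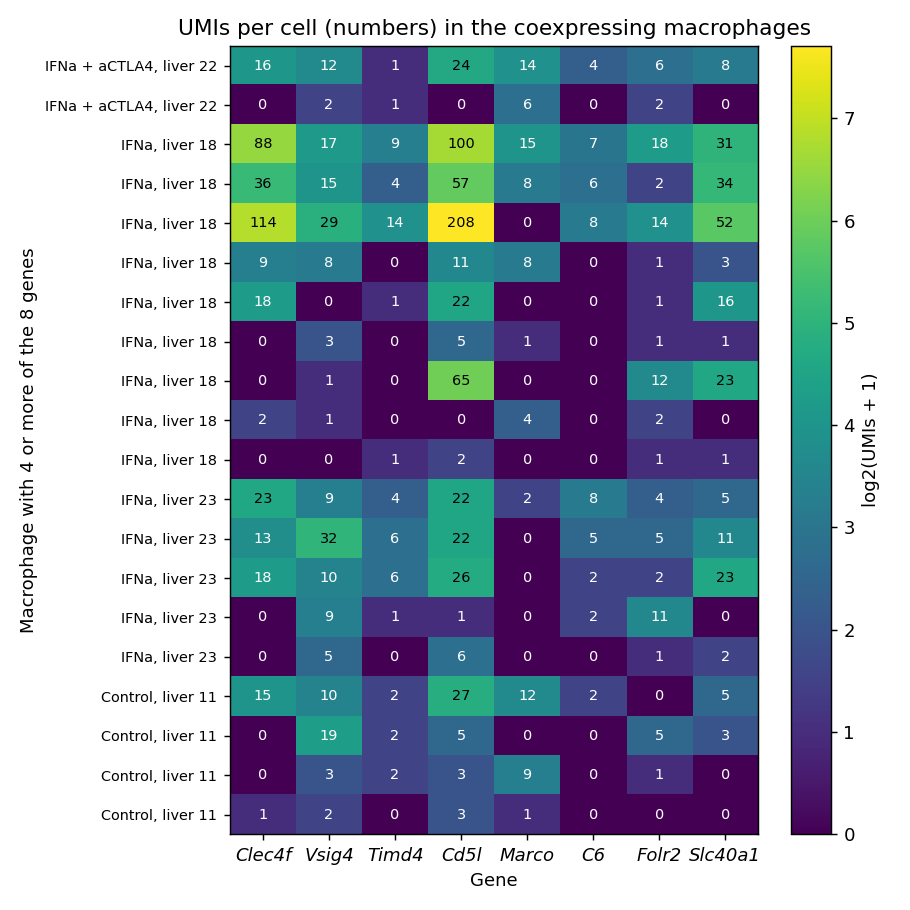
UMIs of each gene (printed number, colour on a log2 scale) in the 20 macrophages with 4 or more of the 8 genes, one row per cell, by treatment and liver. Of the 10 cells with 50 or more UMIs of the 8 genes together, 10 hold Cd5l and 9 hold Clec4f, and Control 25 contributes no row.

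The 20 cells were not uniform. Vsig4, Cd5l and Folr2 were each detected in 18 of them, Slc40a1 in 15, Timd4 in 14, Clec4f in 12, Marco in 11 and C6 in 9. The 12 cells with Clec4f held a median of 7 members and the 8 without it a median of 4.5, at like depth (medians of 6338.5 and 6518 UMIs). Clec4f is itself counted among these members, which adds 1 to the first group by construction. All 20 cells were also chosen on that count. C6 was found in 8 of the 12 and in 1 of the 8, and Timd4 in 9 of the 12 and 5 of the 8. Member UMIs made up 0.0257% to 2.49% of a cell's UMIs. The lowest value belonged to a cell of IFNa 18 with 19493 UMIs in all, 5 of them from members, and 75 of Arg1, an arginase of tumour macrophages.

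Just inside the limit of 4 members, 6 macrophages held exactly 4 with 5 to 101 member UMIs. Just outside it, 5 macrophages held 3, with 3 to 41 member UMIs. Among these was the single macrophage of Control 25 with more than 2 members, which held 18 UMIs of Cd5l, 21 of Slc40a1 and 2 of Vsig4, and 12 of Spic, a transcription factor of iron-recycling macrophages. That liver had only 56 macrophages.

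Each of the 28 pairs of members was found in single macrophages. Across both directions of each pair, a second member was found in 10.9% to 90.0% of the macrophages that held the first, against 0.0865% to 4.92% of the macrophages that lacked it. Every pair was present in 5 to 23 cells and in at least 3 livers. Of the 10 macrophages with C6, 9 held Vsig4, 9 Timd4, 9 Cd5l and 8 Clec4f. Of the 21 macrophages with Clec4f, 14 held Cd5l (66.7%), against 25 of the 1154 without Clec4f (2.17%). Cells of 1 liver share their library and depth, so these shares describe the cells and carry no test.

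**Figure D3:**
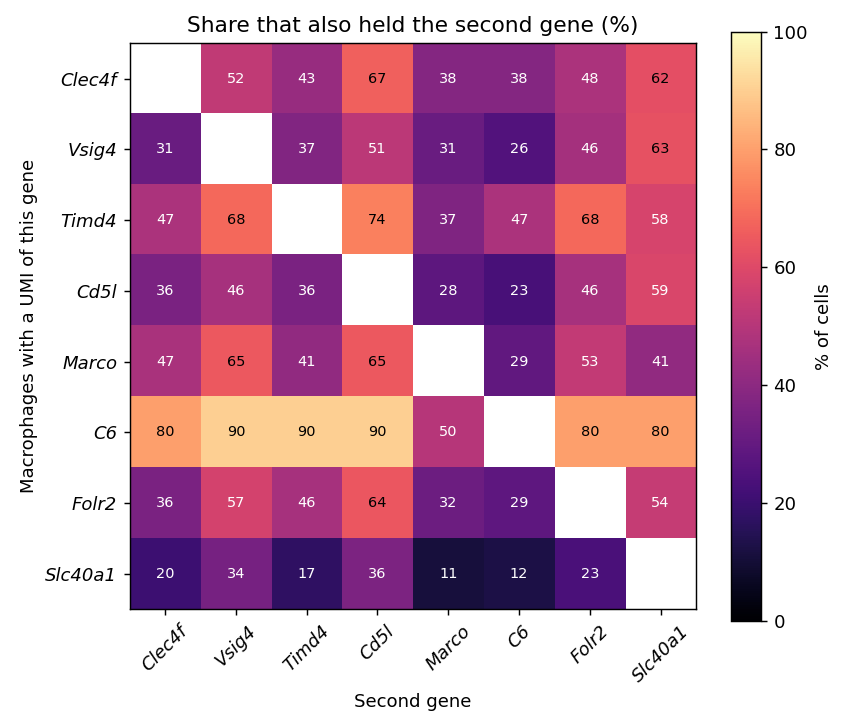
Share (%) of the macrophages with a UMI of the row gene that also held the column gene, all livers together. Values run from 10.9% (Marco among Slc40a1 cells) to 90.0% (Vsig4, Timd4 and Cd5l among C6 cells) and the Slc40a1 row runs from 10.9% to 35.9%.

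Slc40a1 departed from the others. Of the 69 macrophages with a single member, 33 held Slc40a1, and 12 of these had 2 or more UMIs of it. The next most frequent were Cd5l and Folr2 with 8 cells each and Vsig4 with 7, and Clec4f was alone in 5. In Control 11, 66 of the 74 macrophage UMIs of Slc40a1, and in Control 25 all 27, lay in macrophages with fewer than 4 members. In IFNa + aCTLA4 22 this held for 1 of 9, in IFNa 18 for 8 of 169 and in IFNa 23 for 31 of 72.

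Most UMIs of 6 members in the whole data set came from the 20 coexpressing macrophages. Their share of all kept cells' UMIs was 83.0% for C6, 81.5% for Clec4f, 77.3% for Cd5l, 62.8% for Vsig4, 61.5% for Marco and 53.3% for Folr2. For Slc40a1 it was 22.2% and for Timd4 4.90%. These shares are pooled over livers, and IFNa 18 held 1110 of the coexpressing cells' member UMIs, IFNa 23 held 296, Control 11 held 132 and IFNa + aCTLA4 22 held 96. Control 25 had no such cell.

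**Figure D4:**
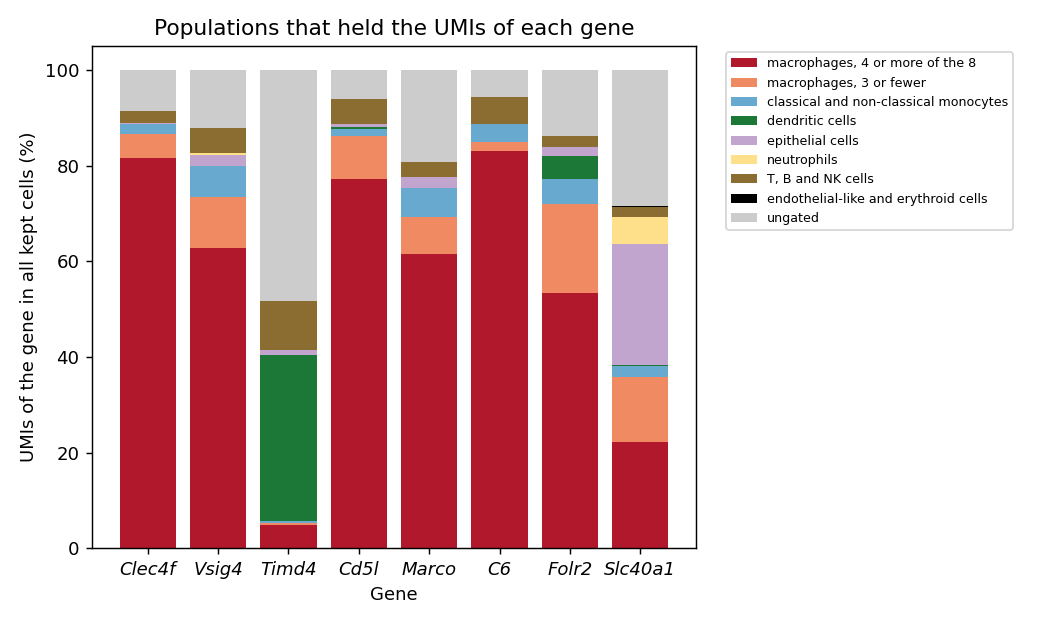
Share (%) of the UMIs of each gene, over all kept cells of the 5 livers, that lay in each gated population, with the macrophages divided by the number of members they held. Coexpressing macrophages hold 53.3% to 83.0% for 6 genes, against 4.90% for Timd4 and 22.2% for Slc40a1.

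Among the gated populations, Timd4 was most frequent in dendritic cells. They held 34.6% of its UMIs, and 48.4% lay in ungated cells. Dendritic cells had 27.0 CPM (the gene's UMIs as a part of all UMIs of the summed cells, in parts per 1000000) of Timd4 in IFNa + aCTLA4 22, 42.5 and 31.8 CPM in IFNa 18 and 23, and 14.9 and 0 CPM in Control 11 and 25. Of the 48 dendritic cells with Timd4, 52.1% also held Cyp7b1, an oxysterol hydroxylase, and 18.8% Ccr7, the receptor of migrating dendritic cells, against 13.5% and 4.72% of the 953 without it. In the 170 ungated cells with Timd4 the share with Ccr7 was 28.8%, against 10.8% in the other 6815. Cyp7b1 and Ccr7 were chosen after their values were seen.

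Slc40a1 was spread over 3 lineages. It was detected in 34.0% of 106 neutrophils and 19.8% of 636 epithelial cells, against 5.45% of macrophages, 0.563% of classical monocytes and 0.203% of T cells. Epithelial cells had 6.4 CPM in IFNa + aCTLA4 22, 17.2 and 23.9 CPM in IFNa 18 and 23, and 16.7 and 17.2 CPM in Control 11 and 25. Of the 158 ungated cells with Slc40a1, 62.0% held S100a8, a calprotectin subunit of neutrophils, against 7.72% of the 6827 without. S100a8 was chosen after its values were seen.

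In summed UMIs, all 8 members were higher in macrophages than in classical monocytes. The test was edgeR's quasi-likelihood test on UMI sums per liver and population, with the liver as a term, adjusted by Benjamini-Hochberg over 12381 genes at 0.05. It called 8 of 8 members higher, against 15.7% of all genes tested (31% in either direction, 15.4% lower). All classical monocytes together held 2 to 22 UMIs of each member, and no member passed the filter on low counts within them alone. The members thus entered this test through the macrophages and could hardly have been called lower, so the count is a description. The same limit holds for the adjusted p of each member in this contrast given below. The median log2 fold change of the members was 5.29, against 0.01 over all genes. Leaving out IFNa 18 left 5 members past the filter on low counts and all 5 were called; Timd4, C6 and Folr2 were then not tested.

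Clec4f had 13.7 CPM in macrophages of IFNa + aCTLA4 22, 105 and 9.98 CPM in those of IFNa 18 and 23, and 3.93 and 1.38 CPM in those of Control 11 and 25. In classical monocytes it had 0.263 CPM in IFNa + aCTLA4 22, 0.561 and 0 CPM in IFNa 18 and 23, and 0.0602 and 0 CPM in Control 11 and 25. Each macrophage value lay above each monocyte value, and IFNa 18 was far above the other livers. The log2 fold change was 6.97 ± 0.32 (SE, edgeR adjusted p = 1.83e-11).

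Cd5l had 23.1 CPM in macrophages of IFNa + aCTLA4 22, 186 and 15.8 CPM in those of IFNa 18 and 23, and 9.60 and 24.9 CPM in those of Control 11 and 25. Classical monocytes had at most 0.561 CPM, so the populations did not overlap, and the log2 fold change was 7.09 ± 0.32 (SE, edgeR adjusted p = 6.78e-10). The Control 25 value came from 18 UMIs in 1 cell.

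Vsig4 had 15.4 CPM in macrophages of IFNa + aCTLA4 22, 29.1 and 12 CPM in those of IFNa 18 and 23, and 11.1 and 2.76 CPM in those of Control 11 and 25, against at most 0.748 CPM in classical monocytes (log2 fold change 5.36 ± 0.43, SE, edgeR adjusted p = 1.91e-08). Slc40a1 had 7.69 CPM in macrophages of IFNa + aCTLA4 22, 63.0 and 12.4 CPM in those of IFNa 18 and 23, and 16.1 and 37.3 CPM in those of Control 11 and 25, against at most 1.5 CPM in classical monocytes (5.43 ± 0.30, edgeR adjusted p = 5.67e-09). Clec4f, Cd5l, Vsig4 and Slc40a1 were the 4 members higher in each macrophage sum than in each classical monocyte sum, as were 6.07% of all genes tested.

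Marco had 22.2 CPM in macrophages of IFNa + aCTLA4 22, 13.4 and 0.516 CPM in those of IFNa 18 and 23, and 5.46 and 0 CPM in those of Control 11 and 25. Folr2 had 6.84 CPM in IFNa + aCTLA4 22, 23.1 and 7.22 CPM in IFNa 18 and 23, and 1.75 and 0 CPM in Control 11 and 25. Timd4 had 2.56 CPM in IFNa + aCTLA4 22, 10.8 and 3.44 CPM in IFNa 18 and 23, and 1.53 and 0 CPM in Control 11 and 25. Their log2 fold changes in macrophages over classical monocytes were 5.22 ± 0.60 for Marco, 5.23 ± 0.54 for Folr2 and 4.62 ± 0.69 for Timd4 (SE, edgeR adjusted p = 3.73e-06, 5.00e-07 and 0.000155). Control 25, with 56 macrophages, was at 0 for each of the 3.

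C6 had 3.42 CPM in macrophages of IFNa + aCTLA4 22, 7.83 and 2.92 CPM in those of IFNa 18 and 23, and 0.655 and 0 CPM in those of Control 11 and 25. It summed to 45 UMIs in macrophages and 2 UMIs in classical monocytes, a ratio of 55.9 with a counting interval of 14.6 to 476. The edgeR call (adjusted p = 9.98e-05) was lost with DESeq2 (adjusted p = 0.173).

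**Figure D5:**
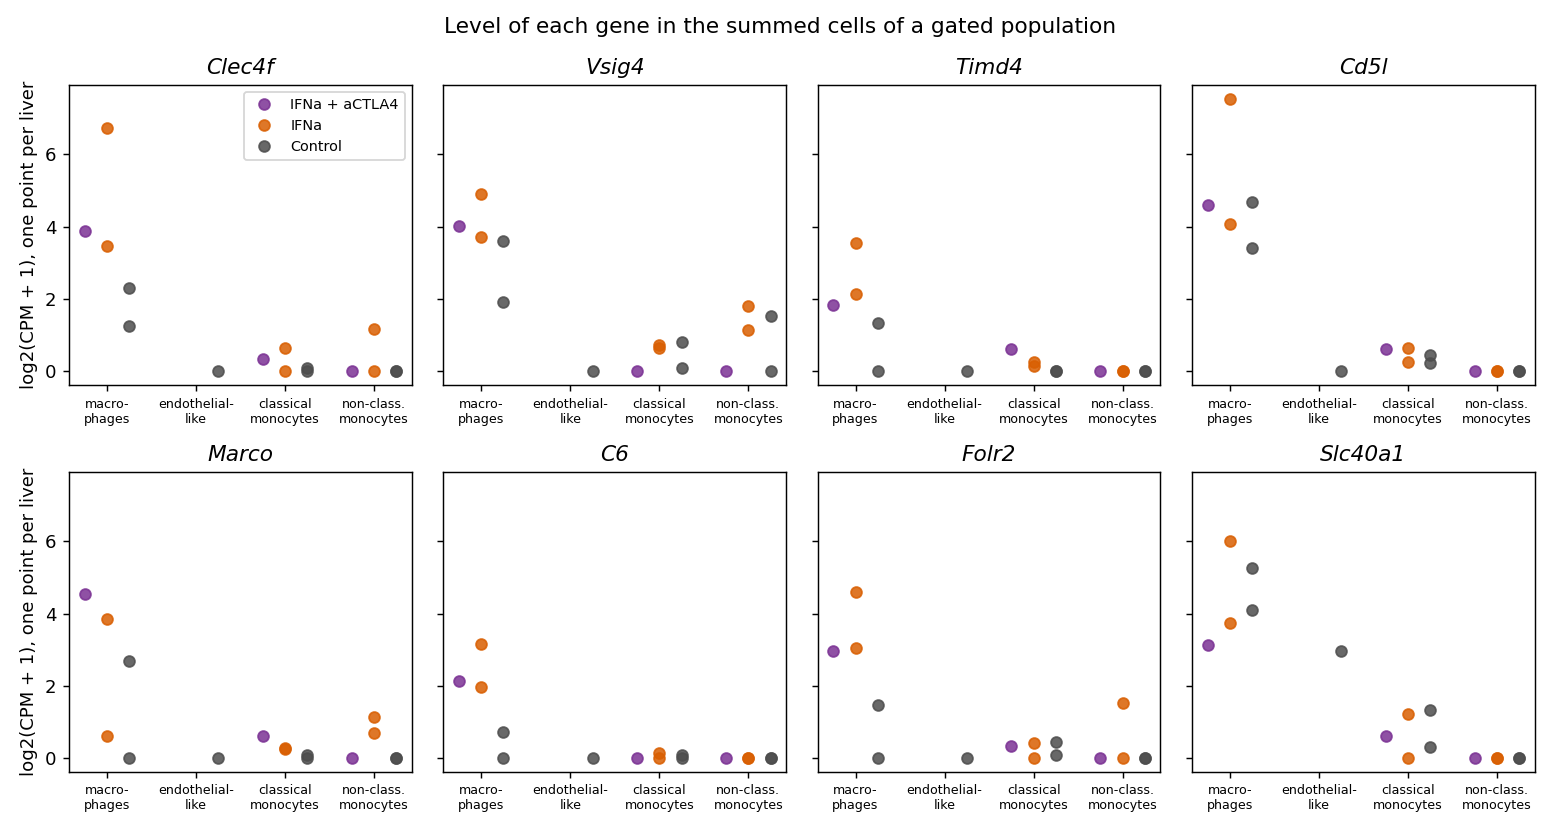
Level of each gene as log2(CPM + 1) in the summed cells of each gated population, 1 point per liver with at least 10 gated cells, coloured by treatment (IFNa + aCTLA4, IFNa, Control). Of the populations drawn, the highest point of each gene is a macrophage point, IFNa 18 is the highest macrophage point for 7 of the 8 genes, and endothelial-like cells have 1 point (Control 11).

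Across the named populations, macrophages had the highest mean for 6 members. The ranges over livers of macrophages and the next population did not overlap for Clec4f (26.8 ± 44.1 CPM in macrophages, against 0.249 ± 0.557 CPM in non-classical monocytes, SD, n = 5 each) and Cd5l (51.8 ± 75.1 CPM, against 1.23 ± 1.06 CPM in B cells). For Vsig4, Marco, C6 and Folr2 the range of macrophages reached into that of the next population. For Timd4 dendritic cells came first (23.2 ± 16.3 CPM, SD, n = 5), then macrophages (3.67 ± 4.20 CPM), with overlapping ranges. For Slc40a1 neutrophils came first (46.5 ± 9.86 CPM, SD, n = 3), then macrophages (27.3 ± 23 CPM, n = 5) and epithelial cells (16.3 ± 6.27 CPM, n = 5), each overlapping the next. Below the first places the neighbours overlapped as well, except endothelial-like cells (1 sum, 6.80 CPM) above erythroid cells (at most 5.87 CPM) for Slc40a1.

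Endothelial-like cells could be summed in Control 11 only, with 10 cells and 147151 UMIs. This sum held 1 UMI of Slc40a1 and none of the other 7 members. A count of 0 there allows up to 20.4 CPM, more than each of these 7 had in the macrophages of the same liver, so a difference was not detectable at this depth. In the edgeR fit none of 8 members was called in endothelial-like cells against classical monocytes (20.1% of all genes were called, 9.14% higher and 11% lower, with 0 of 8 members by DESeq2 and 0 of 8 at an unadjusted p under 0.05), or in macrophages against endothelial-like cells (16.9% called, 8.97% higher and 7.98% lower, with 0 of 8 by DESeq2 and 0 of 8 at an unadjusted p under 0.05). The lone sum is assumed to vary like the others. For Slc40a1 the log2 fold changes were 3.81 ± 2.13 over classical monocytes (SE, edgeR adjusted p = 0.259) and 1.62 ± 1.30 for macrophages over endothelial-like cells (adjusted p = 0.469).

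IFNa against Control was then tested within macrophages. No member passed the threshold in edgeR (0 of 8, against 2.98% of 10830 genes called, 2.12% higher and 0.859% lower), with 5 of 8 at an unadjusted p under 0.05, against 1457 of all 10830 genes, and 1 of 8 (Folr2) called by DESeq2, against 231 of 10830. In CPM, both IFNa livers lay above both Control livers for 5 members, Clec4f, Vsig4, Timd4, C6 and Folr2, as did 30% of all genes tested. The median log2 fold change of the 8 members was 2.55, against 0.00063 over all genes. It depended on single livers: without IFNa 18 the median of the 6 members tested was 0.222, and without Control 11 that of all 8 was 5.91. In bulk sums fewer cells with a gene and less RNA per cell cannot be told apart, and the number of coexpressing macrophages differed between the livers alongside. Its part in the result was not tested.

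The log2 fold changes in IFNa over Control macrophages were 3.16 ± 0.77 for Folr2 (SE, edgeR adjusted p = 0.0596), 3.86 ± 1.10 for Clec4f (adjusted p = 0.112), 2.83 ± 1.01 for Cd5l (adjusted p = 0.221) and 2.27 ± 0.85 for Timd4 (adjusted p = 0.247). C6 had 38 UMIs in IFNa against 3 UMIs in Control macrophages, a ratio of 7.91 with a counting interval of 2.51 to 40.1 (edgeR adjusted p = 0.168). Vsig4 had 0.98 ± 0.48 (adjusted p = 0.440), Slc40a1 0.62 ± 0.67 (adjusted p = 0.787) and Marco 0.32 ± 1.10 (adjusted p = 0.961). Folr2 was called with DESeq2 (adjusted p = 0.0314) and with doublets kept (adjusted p = 0.0400).

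The values moved when IFNa 18 was left out, which took Timd4 and C6 below the filter. The log2 fold change was then 2.22 ± 0.87 for Folr2, 1.46 ± 0.60 for Clec4f, 0.34 ± 0.46 for Vsig4 and 0.11 ± 0.39 for Cd5l (SE, edgeR adjusted p = 0.146, 0.194, 0.961 and 0.991). Slc40a1 was at -0.98 ± 0.39 and Marco at -2.99 ± 1.00 (edgeR adjusted p = 0.157 and 0.0564). None of the 6 members tested was called, against 523 of 10740 genes in that fit. Without IFNa 23, 5 of 8 members were called, Clec4f, Vsig4, Cd5l, Folr2 and Slc40a1, against 305 of all 10095 genes in that fit.

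Levels were also taken with the 20 coexpressing cells set aside. Those cells were picked for holding the members, so this must lower the members, and it is a description chosen after the values were seen. Clec4f then had 5.79 and 0.691 CPM in IFNa 18 and 23, against 0.440 and 1.38 CPM in Control 11 and 25. Vsig4 had 1.54 and 0.864 CPM in IFNa 18 and 23, against 3.74 and 2.76 CPM in Control 11 and 25. Folr2 had 3.86 and 3.28 CPM in IFNa 18 and 23, against 0.440 and 0 CPM in Control 11 and 25. Slc40a1 had 3.09 and 5.36 CPM in IFNa 18 and 23, against 14.5 and 37.3 CPM in Control 11 and 25. Both IFNa livers were thus above both Control livers for 1 member, below for 2, and overlapped for 5. No share over all genes was taken for these cells. In IFNa + aCTLA4 22 the remaining macrophages had 0 CPM of Clec4f, C6 and Folr2.

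For IFNa + aCTLA4 against Control, 1 combination liver stood against 2 Control livers and was assumed to vary like the others. No member passed in edgeR (0 of 8, against 5.31% of 10830 genes called, 3.8% higher and 1.51% lower, with 0 of 8 at an unadjusted p under 0.05, and 0 of 8 by DESeq2). The log2 fold changes ran from 2.38 ± 1.24 for Marco (SE, edgeR adjusted p = 0.366) to -1.46 ± 1.23 for Slc40a1 (adjusted p = 0.607). Clec4f was at 1.99 ± 1.75 (adjusted p = 0.625), and C6 had 4 UMIs against 3 UMIs in Control, a ratio of 6.05 with a counting interval of 1.02 to 41.3. Leaving out either IFNa liver, which changes the shared estimate of spread, gave 3 calls, Clec4f and Marco higher and Slc40a1 lower. In those fits 880 of 10740 genes were called without IFNa 18 and 875 of 10095 without IFNa 23. The 2 comparisons share the Control livers.

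Within classical monocytes no member passed the filter on low counts, so 0 of 8 were tested in IFNa or in IFNa + aCTLA4 against Control (11.7% of 11404 genes were called in IFNa, 7.47% higher and 4.2% lower, and 10.6% in IFNa + aCTLA4, 7.52% higher and 3.07% lower). Over the 5 livers classical monocytes held 7 UMIs of Clec4f, 12 each of Vsig4 and Cd5l, 6 each of Marco and Folr2, 4 of Timd4, 2 of C6 and 22 of Slc40a1 among 37201297 UMIs. With every gene kept, edgeR called 0 of 8 in both comparisons. The difference of the IFNa effect between macrophages and classical monocytes was tested for each member with the liver as a term, and 0 of 8 passed (edgeR adjusted p = 0.267 for Cd5l, the lowest), against 244 of 12116 genes. With so few monocyte UMIs a difference was hardly detectable (SE of 2.94 for C6 and 2.16 for Clec4f on the log2 scale). The outcome therefore does not decide whether the effects differ.

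Other genes of Kupffer cells accompanied the members within single cells. Of 13 such genes, 12 were higher in CPM in the coexpressing macrophages than in the 1064 macrophages with no member, and 7 were higher in each of the 4 livers that held both. Clec1b, a C-type lectin of Kupffer cells, was found in 14 of the 20 cells at 427 CPM, against 2.54% of the no-member cells at 2.20 CPM. By liver the coexpressing cells had 938 CPM in IFNa + aCTLA4 22, 555 and 310 CPM in IFNa 18 and 23, and 29.7 CPM in Control 11. The Control 11 value was 1 UMI in 1 cell. Cdh5, another of the 7, was likewise at 29.7 CPM in Control 11, which is 1 UMI. The haem oxygenase Hmox1 had 905 CPM, against 161 CPM. The nuclear receptor Nr1h3 (LXR alpha) had 396 CPM, against 99.7 CPM, Id3 had 541 CPM, against 196 CPM, and Spic had 107 CPM, against 3.52 CPM. In Control 11 Id3 was lower in the coexpressing cells (119 CPM, against 301 CPM). Axl, an efferocytosis receptor, had 327 CPM, against 330 CPM. Cd163, the haemoglobin scavenger receptor, had 27 UMIs in the 20 cells and 3 UMIs in the 1064. Of the 27 UMIs, 17 lay in 1 cell of IFNa 18 and 0 in the cells of Control 11. These cells were chosen on the members, and the values are a description without a test.

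Genes of monocyte-derived and tumour macrophages were lower in the coexpressing cells for 6 of 8 in pooled CPM, of which 2 were lower in each of the 4 livers. The other 2 were higher in pooled CPM only. Gpnmb, a glycoprotein of lipid-laden macrophages, had 37.7 CPM, against 8.72 CPM. This came from 6 UMIs in 3 of the 20 cells, and Gpnmb was higher in 2 of the 4 livers. Arg1 had 622 CPM, against 540 CPM, with 75 of its 99 UMIs in 1 cell of IFNa 18. It was higher in 1 of the 4 livers and lower in 3. Ly6c2 had 1 UMI in the 20 cells, against 1557 CPM in the macrophages with no member, and Ccr2 had 62.9 CPM, against 634 CPM, with 9 of its 10 UMIs in 1 cell of Control 11. Spp1, osteopontin, had 2 UMIs in the 20 cells, against 644 CPM. Fn1, fibronectin, had 40 UMIs in the 20 cells, all in 1 cell of Control 11. That cell also held 21 UMIs of Alox15 and 8 of Prg4, which mark peritoneal macrophages. Gata6, Selp and Serpinb2, other peritoneal markers, were at 0 in the 20 cells. All 8 classical monocyte markers were lower in the coexpressing cells in each of the 4 livers. For the weaker markers this is partly a matter of few UMIs. In IFNa + aCTLA4 22, 1 UMI in the coexpressing cells is 104 CPM. Vcan, Chil3 and F13a1 had only 15.2, 37.6 and 45.6 CPM in the no-member cells there. In Control 11 F13a1 had 178 CPM, against 183 CPM.

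Signs of mixed cells were measured in the 20 cells. They held at most 2 of 12 endothelial markers and 10 of the 12 summed to 0, with Stab2 at 10 UMIs in 7 cells and Tek at 3 UMIs. Cdh5, which endothelium also expresses, had 145 CPM in these cells and was found in 7 of 20, against 1.10 CPM in macrophages with no member. Clec1b, found in 14 of the 20, was like Cdh5 at a higher level in the endothelial-like sum of Control 11 than in summed macrophages. The log2 fold changes of macrophages over endothelial-like cells were -2.71 for Clec1b and -7.37 for Cdh5. The 5 hepatocyte markers summed to 62.9 CPM, against 13.9 CPM, with Alb in 4 of 20 cells, against 7.99% of the cells with no member. The 20 cells held at most 1 of 5 T cell markers, and 0 of 20 carried a T cell receptor beta chain. Their median UMI count was 6338.5, against 12415 in macrophages with no member. Their median doublet score was 0.65, against 0.467, and in IFNa 18 it was 0.767, where 0.867 was the lowest score removed and also the score of 1 of the 9 cells kept. Keeping the likely doublets added 2 macrophages with 4 or more members. The part of doublets and of RNA from other cells in the result was not tested.

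The same 2 lists were tested between treatments in the summed macrophages. Of 13 other Kupffer genes, 10 passed the filter. In IFNa over Control 2 rose and none fell (2.12% of all genes higher and 0.859% lower): Il18bp, a decoy of the cytokine IL-18, by 1.60 ± 0.27 on the log2 scale (SE, edgeR adjusted p = 0.00996) and Nr1h3 by 1.13 ± 0.18 (adjusted p = 0.00652). Both calls were lost without Control 11 (adjusted p = 0.0961 and 0.0595), and that of Nr1h3 also with a stricter gate (0.0549). In IFNa + aCTLA4 over Control (3.8% of all genes higher and 1.51% lower) the same 2 genes rose, Il18bp by 3.16 ± 0.31 and Nr1h3 by 1.30 ± 0.22, and the inhibitors of differentiation Id1 and Id3 fell, with log2 fold changes of -3.39 ± 0.61 and -1.52 ± 0.32 (edgeR adjusted p = 0.000211, 0.0063, 0.00871 and 0.0207). Id3 was lost without Control 11 (adjusted p = 0.0592) and with a stricter gate (0.0675). Hmox1 (-0.33 and -1.02), Axl (0.37 and 0.18) and Id3 in IFNa (-0.68) did not pass.

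Of the 8 monocyte-derived and tumour macrophage genes, 1 rose and 1 fell in IFNa over Control macrophages (2.12% of all genes higher and 0.859% lower). Ly6c2, an interferon-responsive monocyte antigen, rose by 2.71 ± 0.19 on the log2 scale (SE, edgeR adjusted p = 0.000164) and Fn1 fell by 2.15 ± 0.27 (adjusted p = 0.00189). In IFNa + aCTLA4 over Control 1 rose and 5 fell (3.8% of all genes higher and 1.51% lower). Ly6c2 rose by 3.66 ± 0.21, and Spp1, Fn1, Arg1, the lipid receptor Trem2 and the chemokine receptor Cx3cr1 fell, with log2 fold changes of -5.94, -4.29, -2.15, -1.83 and -1.20 (edgeR adjusted p = 0.00390, 0.000216, 0.0126, 0.00179 and 0.0126). Arg1 was lost with a stricter gate (adjusted p = 0.0803). The medians of this list were -0.27 and -1.54, against 0.00063 and -0.0068 over all genes.

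In classical monocytes the same lists were tested in the same comparisons. In IFNa over Control, 3 of 9 tested other Kupffer genes rose and none fell (7.47% of all genes higher and 4.2% lower), namely Il18bp, Nr1h3 and Axl, with log2 fold changes of 2.07, 1.53 and 3.13 (edgeR adjusted p = 0.0118, 0.00921 and 0.00024). Of the 8 monocyte-derived and tumour macrophage genes 3 rose, Ly6c2 (2.39), Spp1 (2.65) and Arg1 (2.07), and Trem2 (-1.36) and Fn1 (-1.46) fell (edgeR adjusted p = 0.000145, 0.0361, 0.0289, 0.0271 and 0.00229). Spp1 and Arg1, which were at -0.50 and -0.55 in IFNa macrophages, and Trem2 were not called by DESeq2 (adjusted p = 0.131, 0.0607 and 0.0770). In IFNa + aCTLA4 over Control, Il18bp (3.87), Axl (3.04) and Ly6c2 (2.79) rose, and Id1 (-0.99), Cx3cr1 (-0.86), Trem2 (-2.45) and Fn1 (-2.62) fell (7.52% of all genes higher and 3.07% lower). Il18bp in IFNa was lost without Control 11 (edgeR adjusted p = 0.0947), Id1 with DESeq2 (adjusted p = 0.0626) and Cx3cr1 with a stricter gate (edgeR adjusted p = 0.0556).

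Between populations, 6 of the 10 tested other Kupffer genes were higher in macrophages than in classical monocytes and none was lower (15.7% of all genes higher and 15.4% lower): Clec1b (log2 fold change 2.88 ± 0.40, SE, edgeR adjusted p = 1.59e-05), Cdh5 (1.75 ± 0.55, 0.0236), Nr1h3 (1.63 ± 0.14, 6.05e-08), Axl (1.60 ± 0.36, 0.00190), Il18bp (1.51 ± 0.14, 1.51e-07) and Spic (1.31 ± 0.43, 0.0251). Cdh5 and Spic were each called in 7 of 11 settings of the fit, and without IFNa 18 neither was (adjusted p = 0.190 and 0.116). Clec1b, Cdh5, a cadherin of endothelium, and Id3 were also higher in endothelial-like cells than in classical monocytes (log2 fold changes 5.59 ± 1.00, 9.13 ± 0.66 and 1.72 ± 0.45). In macrophages over endothelial-like cells the 3 genes were at -2.71 ± 0.89, -7.37 ± 0.72 and -1.26 ± 0.44, while the median of the 10 tested genes was 1.56. Endothelial-like cells had 1 sum, that of Control 11. Of the 8 monocyte-derived and tumour macrophage genes 4 were higher, Arg1 (2.77), Spp1 (2.43), Trem2 (1.37) and Cx3cr1 (0.78), and Ly6c2 (-1.67) and Ccr2 (-0.54), which helped to gate the monocytes, were lower. Spp1 was lost without IFNa 18 (adjusted p = 0.0985) and with DESeq2 (0.144).

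The genes whose level followed the members most closely over the 25 population and liver sums were mainly macrophage genes. Of 5851 genes that reached 50 CPM, the 10 with the highest Pearson r with the members' mean log2(CPM + 1) were C1qc, C1qa, Mmp12, C1qb, Il10rb, Uap1l1, Pf4, Olfml3, Zmynd15 and Itga9, with r of 0.888 to 0.786. C1qa, C1qb and C1qc define the macrophage gate. Mmp12, a macrophage elastase, had 116 ± 63.4 CPM in macrophages (SD over 5 livers) and at most 12 CPM in the sums of the other populations. The sums share livers and populations, so r is a description.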

How the data were processed

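The authors deposited UMI counts per gene and cell barcode, for which the submitters' processing notes name Cell Ranger 7.0.1 and the build mm10, and T cell receptor contigs. Kept barcodes had 200 or more detected genes and no more than 15% of UMIs from mitochondria, and likely doublets, scored against simulated doublets at an expected share that grows with cell number, were removed. Populations were gated on marker genes that exclude the members, with thresholds set after marker counts were seen. Counts were summed per liver and population with at least 10 cells and tested with edgeR 4.0.16 (TMM, filterByExpr, quasi-likelihood, Benjamini-Hochberg over all genes, threshold 0.05), population contrasts with the liver as a term. Library totals were 10464216 to 69856071 UMIs. DESeq2 1.42.0, other scaling, no filter, stricter gates, doublets kept and each liver left out were alternatives. The edgeR fit was tested on simulated data. Named genes are all members, the called genes of each list and its 4 genes with most macrophage UMIs, and the 10 genes most like the members. The members and lists were chosen with earlier results of these data known. Intervals are exact binomial or Poisson at 95%, cover counting error only, and a count of 0 is bounded by 3 counts. T cell receptor files were used only to mark cells with a beta chain.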

Additional observations from a re-analysis of the deposited data

How the results depend on the processing

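Of the counts of members called, most stayed within 1.5 times the reported value, but many of these could hardly move. Within classical monocytes no member was tested in any fit that filtered low counts. The contrasts with endothelial-like cells rested on 1 sum. Stability of those counts therefore says little. In IFNa over Control macrophages, where 0 of 8 were called, DESeq2 called 1, against 231 of 10830 genes. No filter on low counts called 6, against 716 of 18112 genes, and doublets kept called 1, against 331 of 10975. Leaving out 1 liver gave 0 to 5, with 5 without IFNa 23. In IFNa + aCTLA4 over Control, no filter called 2, against 991 of 18112 genes, and leaving out either IFNa liver moved the count, as given above. In macrophages over classical monocytes leaving out 1 liver gave 5 to 8, since 3 members did not pass the filter without IFNa 18. The log2 fold change in IFNa over Control turned for Marco with a stricter gate (-0.00018) and for Marco between -2.99 without IFNa 18 and 6.85 without Control 11. It turned for Slc40a1, between -0.98 without IFNa 18 and 1.45 without IFNa 23. For Cd5l in IFNa + aCTLA4 over Control it ran between -0.071 without Control 11 and 1.28 without Control 25. The cause was not tested. The fit without the liver as a block called 8 of 8 in macrophages over classical monocytes. No paired analysis was possible because the treatments share no replicate numbers. Treatment contrasts in endothelial-like cells were not run, since 1 liver had 10 such cells, and contrasts with endothelial-like cells had no value without Control 11.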

Other observations

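Genes outside the lists, chosen after their values were seen, also differed in level between the 20 macrophages with 4 or more members and the 1064 with none. Cd74, the chaperone of MHC class II, had 4921 CPM in coexpressing macrophages, against 15274 CPM in those with no member, and the class II gene H2-Ab1 had 1395 CPM, against 4023 CPM. Cd74 was lower in each of the 4 livers with both kinds of cell, and H2-Ab1 in 3 of the 4, with 4368 CPM, against 3982 CPM, in Control 11. The mannose receptor Mrc1 had 289 CPM, against 54.5 CPM, and was higher in each of the 4 livers. Of the interferon-stimulated genes, Isg15 had 509 CPM, against 1163 CPM, lower in each of the 4 livers. Irf7 had 1012 CPM, against 900 CPM, in pooled cells but was lower in 3 of the 4 livers. Ifit3 had 377 CPM, against 256 CPM, and was higher in 2 of the 4. These are descriptions of few cells, with no test.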
